A study of Macaca mulatta with 12 samples.

Results

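The small RNA profile of the occipital lobe was compared with that of the spinal cord, which are 2 of the 12 profiles of the series. Both were chosen by their sample labels. The study sequenced small RNAs from 8 tissues of the rhesus macaque (Macaca mulatta) to find microRNAs (miRNAs) and their editing sites. The intestines (small and large), muscle and kidney are represented by 2 profiles each, and the remaining tissues, with lung and liver beside the pair described here, by 1. All samples came from wild-type animals of 36 months without treatment, and total RNA was isolated with TRIzol before the small RNA libraries were made. The tissues were taken from 2 animals, and the sources used here do not say which animal gave the occipital lobe and which the spinal cord, so that tissue and animal cannot be told apart. Each of these tissues is a whole piece of tissue with neurons, glia, vessels and blood. The occipital lobe profile held 23009849 valid reads and the spinal cord profile 23906542, and the other 10 profiles held between 22118095 and 25579064.

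A miRNA is cut from a hairpin precursor (pre-miRNA), whose arms give a mature miRNA named 5p or 3p. The seed, bases 2 to 8 of the mature miRNA, pairs with target messenger RNAs. The occipital lobe holds the visual cortex, which is rich in neuron cell bodies, whereas the spinal cord has much white matter with myelin made by oligodendrocytes. The cells of the spinal cord keep the activity of the HOX genes, which set position along the body axis, and the cells of the cerebral cortex do not. Among the miRNAs used as markers, miR-124a is enriched in neurons, miR-219 in oligodendrocytes, and miR-10b lies within a HOX cluster.

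The mature sequences that the comparison turned on were as follows, from 5′ to 3′ with the seed in capitals. The species prefix mml- is left off, and the sequences are those of the study's own list of pre-miRNAs. The first pair shares its seed and lies in HOX clusters, the next pair comes from both arms of 1 hairpin, miR-182 and miR-183 have neighbouring hairpins, miR-219-2-3p marks oligodendrocytes, miR-34c-5p belongs to a family with a shared seed, and miR-143-3p was among the most abundant miRNAs.
miR-10a-5p: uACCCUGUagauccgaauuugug
miR-10b-5p: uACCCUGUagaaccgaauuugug
miR-1298-5p: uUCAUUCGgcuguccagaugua
miR-1298-3p: cAUCUGGGcaacugacugaacu
miR-182-5p: uUUGGCAAugguagaacucaca
miR-183-5p: uAUGGCACugguagaauucacug
miR-219-2-3p: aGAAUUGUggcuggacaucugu
miR-34c-5p: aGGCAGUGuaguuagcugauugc
miR-34a-5p: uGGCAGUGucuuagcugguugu
miR-143-3p: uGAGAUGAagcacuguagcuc
The sequences of miR-10a-5p and miR-10b-5p differed by 1 base, U12A from miR-10a-5p to miR-10b-5p, counted from 1 at the 5′ end.

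To count a mature miRNA, reads were taken that matched a pre-miRNA exactly and began and ended no more than 2 nucleotides from its ends. Such reads made up 56.2% of the valid reads in occipital lobe and 57.9% in spinal cord. Levels are given in reads per 10000000 valid reads (RPTM). Of 1219 distinct mature sequences, 773 had a read in at least 1 of the 12 profiles, and 371 passed the filter, which asks for 5 RPTM or more on average over the 12 profiles and for a standard deviation not under 1. A difference is log2 of the occipital lobe level over the spinal cord level, each with 1 RPTM added, so that it understates the change of miRNAs with few reads. Because each tissue had 1 profile, these differences have no replicate check and no test was made. The differences between the 2 profiles of kidney, muscle, small intestine and large intestine were used as the scale. Where a 95% counting interval is given for a difference, it is the exact interval for the ratio of reads and covers counting error only.

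The identity of both profiles was first checked with markers. miR-124a-3p stood at 10508 RPTM in occipital lobe against 3278 RPTM in spinal cord, and at 0.871 to 7.26 RPTM in the other 10 profiles. miR-219-2-3p stood at 2329 RPTM in occipital lobe, 18456 RPTM in spinal cord and 2.05 to 5.65 RPTM elsewhere. miR-9-5p, another neural miRNA, stood at 383871 and 261318 RPTM, and reached at most 988 RPTM in the other profiles. Each of these neural miRNAs was thus far above the other tissues in both profiles. miR-122a-5p, the major miRNA of hepatocytes, had 4 reads in each of the 2 profiles and 7320 RPTM in liver.

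The miRNAs that differed most were largely higher in spinal cord. Of 371 filtered miRNAs, 52 (14%) were at least 4-fold higher in spinal cord and 3 (0.809%) were at least 4-fold higher in occipital lobe. The filter average includes both profiles, so a miRNA can pass it through its spinal cord level alone. miR-448-3p did so, with 75.3 RPTM there and 0.869 RPTM in occipital lobe. Such miRNAs add to the 52 and to the 14% set beside the lists below. With no filter, 76 of 655 miRNAs were called for spinal cord and 8 for occipital lobe. Within the 4 tissues with 2 profiles, differences of 4-fold in either direction were seen for 6 (1.62%, large intestine), 9 (2.43%, small intestine), 11 (2.96%, kidney) and 15 (4.04%, muscle) of the same 371 miRNAs. The median absolute difference between occipital lobe and spinal cord was 0.82 on the log2 scale, and those of the 4 pairs lay between 0.44 and 0.52. The difference was larger than in each of the 4 pairs for 51 of the 52 miRNAs higher in spinal cord and for all 3 higher in occipital lobe. The exception was miR-489-3p, which is named after its value was seen. Of all 371 miRNAs, 113 (30.5%) were higher in spinal cord and beyond each pair, and 46 (12.4%) were so in occipital lobe. Pairs seldom differed by 4-fold, and miRNAs with few reads in the 4 tissues have pair differences near 0. Being beyond each pair therefore adds little to a 4-fold difference.

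**Figure D1:**
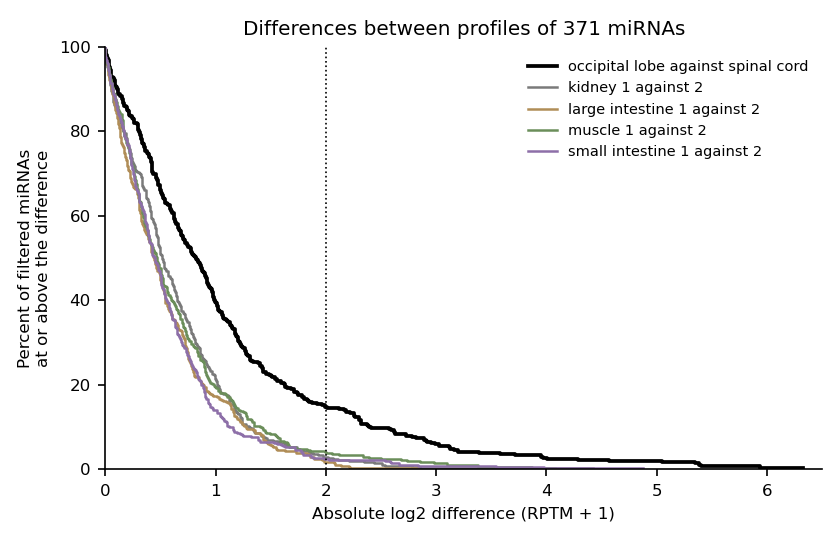
The percent of the 371 filtered miRNAs (y axis) whose absolute log2 difference in RPTM + 1 was at or above the value on the x axis, for occipital lobe against spinal cord (black) and for the 2 profiles of kidney, large intestine, muscle and small intestine. The black line lies above the lines of the 4 pairs, and at the dotted line (4-fold) it stands at 14.8% of the miRNAs, beside 1.62% to 4.04% for the pairs.

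The median difference of the 371 miRNAs was −0.33, so that most miRNAs had a slightly lower level in occipital lobe. For the 185 miRNAs that averaged 100 RPTM or more, the median was 0.013. Spinal cord accounted for 94.5% of the calls on this scale and for 84.4% of them when the differences were centred on their median, with 38 miRNAs higher in spinal cord and 7 in occipital lobe. With TMM factors, the median difference was −0.19, and 44 and 3 miRNAs were called. Of the 52 miRNAs higher in spinal cord, 24 were also higher there than in any of the 10 profiles of other tissues, and 13 were below the median of those profiles. The occipital lobe level was under every other profile for 17 of the 52. Some of the 52 thus peaked in spinal cord, and others were common outside the nervous system and low in the occipital lobe. The same counts were not made over all 371 miRNAs, so they describe the 52 and do not set them apart.

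**Figure D2:**
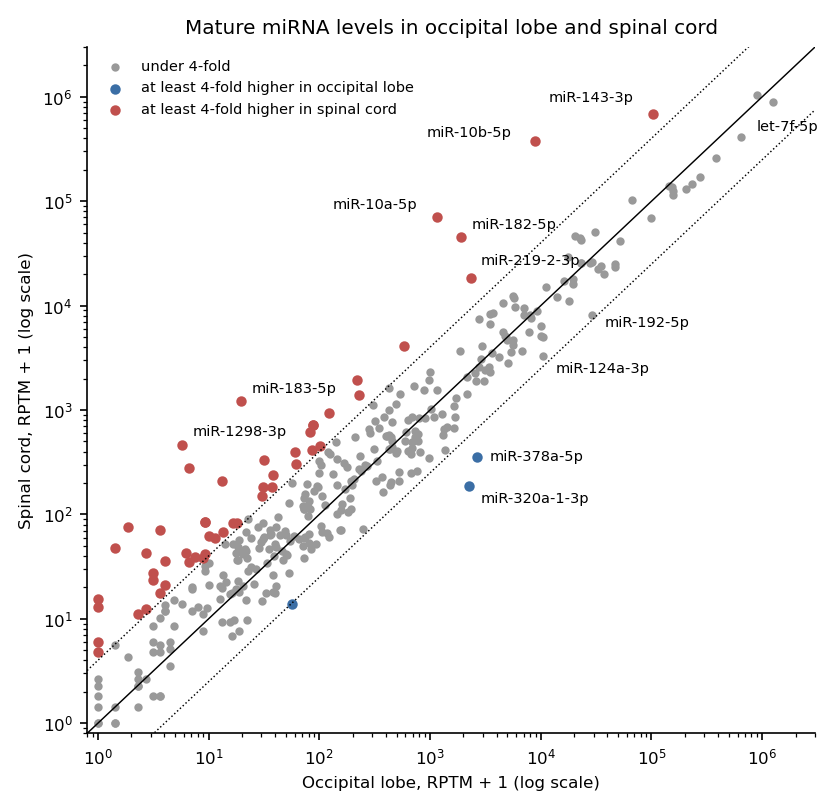
Levels of the 371 filtered miRNAs in occipital lobe (x axis) and spinal cord (y axis), as RPTM + 1 on log scales. The solid line marks equal levels and the dotted lines 4-fold differences, with 52 miRNAs above the upper line (red) and 3 below the lower (blue).

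Among the marker lists, the miRNAs of the HOX clusters differed most in their summed level. miR-10b-5p had 8946 RPTM in occipital lobe against 379494 RPTM in spinal cord, and 22211 to 3705808 RPTM in the other profiles. Its difference of −5.41 (95% counting interval −5.43 to −5.39) stood beside at most 0.79 in the 4 pairs, and the occipital lobe was the lowest of all 12 profiles. miR-10a-5p, whose sequence is printed above next to it, had 1146 and 70444 RPTM, a difference of −5.94 (−5.998 to −5.886). The spinal cord was lower than the other 10 profiles for miR-10a-5p, which held 113791 to 480356 RPTM, and the occipital lobe was lower still. In the RefSeq annotation, the hairpin of miR-10a lies within HOXB3 and that of miR-10b within HOXD4.

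The list of HOX cluster miRNAs held 10 mature sequences of 6 pre-miRNAs, and 7 of them passed the filter. Of the 7, 5 were at least 4-fold higher in spinal cord, beside 14% of all filtered miRNAs, and their median difference was −3.13, beside −0.33 for all. Their summed level was 10100 RPTM in occipital lobe, 449994 RPTM in spinal cord and 143667 to 4189328 RPTM in the other profiles. The members at low levels were the passenger arms miR-10a-3p (0 and 9 reads) and miR-10b-3p (0 and 35 reads), and miR-615-3p (5 and 64 reads), whose hairpin lies within HOXC5. The more caudal members did not share this pattern. miR-196a-5p had 5 reads in occipital lobe and 9 in spinal cord, and miR-196b-5p had 8 and 6, whereas the highest of the other profiles reached 2584 and 1265 RPTM.

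The next group was the cluster of miR-182, miR-183 and miR-96, known from sensory cells such as photoreceptors and hair cells. miR-182-5p had 1897 RPTM in occipital lobe against 45109 RPTM in spinal cord, a difference of −4.57 (−4.62 to −4.53), and of −3.38 with reads identical to the mature sequence only. miR-183-5p had 18.7 and 1208 RPTM, a difference of −5.94 (−6.48 to −5.58), and its spinal cord level was above every other profile, the highest of which was small intestine 1 with 875 RPTM. miR-96-5p, below the level set for naming, had 1 and 111 reads. The hairpins of the 3 miRNAs lie within 10 kb of each other, and all 3 that passed the filter were at least 4-fold higher in spinal cord, beside 14% of all filtered miRNAs, with a median difference of −5.05. These miRNAs were not limited to neural tissue. miR-182-5p reached 97610 RPTM in small intestine 1, and only the liver, with 2187 RPTM, came near the level of the occipital lobe.

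The largest difference of all was that of miR-1298-3p, with 4.78 RPTM (11 reads) in occipital lobe and 463 RPTM (1108 reads) in spinal cord. Its difference was −6.33 (−7.61 to −5.75), and in the other 10 profiles it stood at 0.425 RPTM or less. The 5p arm of the same hairpin, miR-1298-5p, had 5.65 and 277 RPTM, and at most 0.874 RPTM elsewhere. The hairpin lies within HTR2C, the gene of a serotonin receptor that is strongly expressed in the choroid plexus. miR-448, also within HTR2C and named after its values were seen, had 2 reads of its 3p arm in occipital lobe and 180 in spinal cord, and no read in the other 10 profiles. Both arms of miR-1298 and miR-448-3p were thus close to 0 in every profile but the spinal cord.

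The miRNAs listed for choroid plexus and pigment cells are given beside the values of miR-1298 and miR-448. miR-204-5p, the most abundant of the list, had 19591 RPTM in occipital lobe against 15956 RPTM in spinal cord. Its close relative miR-211-5p had 69 and 438 reads, a difference of −2.57. miR-204-3p had 12 and 14 reads and did not pass the filter. The summed level of the list was 19626 and 16145 RPTM, and 144 to 30033 RPTM in the other profiles, and miR-204-5p made up nearly all of it. Of the 2 members that passed the filter, miR-211-5p was at least 4-fold higher in spinal cord and miR-204-5p was not. Which cells gave the reads of miR-1298 and miR-448 was not tested, and neither was a part of choroid plexus cells.

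The other miRNAs with the largest differences toward spinal cord came from several places. miR-34c-5p had 12.2 RPTM in occipital lobe against 210 RPTM in spinal cord, a difference of −4.00, and it was highest in lung with 1221 RPTM. miR-34a-5p, which has the same seed and is induced by the tumour suppressor p53, had 81.3 and 616 RPTM. miR-767-5p, within the GABA receptor gene GABRA3, had 30.4 and 328 RPTM and at most 2.71 RPTM outside the neural profiles. miR-584-5p, within SH3TC2, a gene of myelinating Schwann cells, had 220 and 1920 RPTM and at most 86.3 RPTM outside them. The difference of miR-584-5p was −3.12, close to the 2.74 by which the profiles of a single tissue differed at most.

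miR-34c also stands on the list of multiciliated cells, such as those that line the ventricles and the central canal. Of the 7 mature sequences of this list, 2 passed the filter, and only miR-34c-5p was at least 4-fold higher in spinal cord, beside 14% of all filtered miRNAs. miR-449a-5p and miR-449b-5p, which define these cells, had 5 reads each in occipital lobe, and 2 and 0 reads in spinal cord. In lung, an organ with ciliated epithelium, they stood at 77.0 and 11.4 RPTM. The summed level of the list was 16.5 RPTM in occipital lobe against 214 RPTM in spinal cord, nearly all of it from miR-34c-5p.

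**Figure D3:**
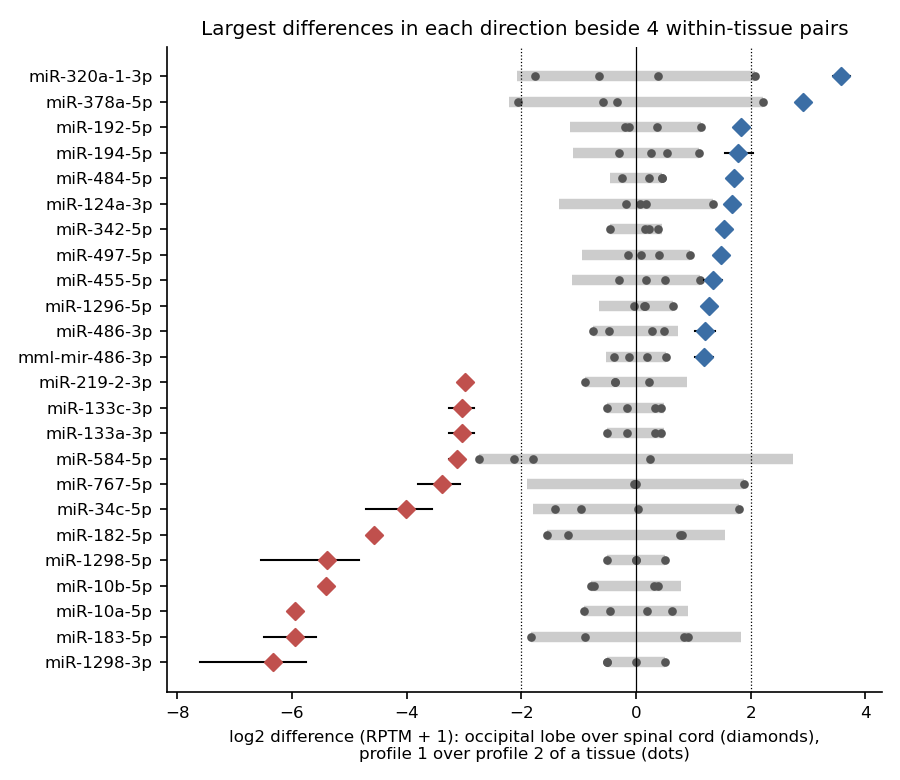
The log2 difference in RPTM + 1 of the 12 miRNAs with the largest difference in each direction (diamonds, red where higher in spinal cord and blue where higher in occipital lobe), with black lines for the 95% counting interval of the ratio of reads. Dots show the difference of profile 1 over profile 2 in kidney, large intestine, muscle and small intestine, and grey bars reach to the largest of them in both directions. The miRNAs were chosen for differences beyond their grey bars, and those nearest to the bar are miR-455-5p (1.34 beside 1.11), miR-124a-3p (1.68 beside 1.35) and miR-584-5p (−3.12 beside 2.74).

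The oligodendrocyte miRNAs were also higher in spinal cord. miR-219-2-3p, which promotes the maturation of oligodendrocytes, differed by −2.99 (−3.03 to −2.95), which is 7.92-fold, and by at most 0.89 in the 4 pairs. miR-219-1-5p, from the 5p arm, had 121 RPTM in occipital lobe against 943 RPTM in spinal cord, a difference of −2.95. miR-338-3p, a further miRNA of myelin-forming cells, had 2765 and 7468 RPTM, a difference of −1.43. This was within the spread of its 4 pairs, of which the largest was 2.34. miR-338-5p had 142 and 497 RPTM.

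Of the 8 mature sequences of the oligodendrocyte list, 4 passed the filter, 2 were at least 4-fold and all 4 at least 2-fold higher in spinal cord, beside 31.3% of all filtered miRNAs at 2-fold. The summed level of the list was 5375 RPTM in occipital lobe against 27382 RPTM in spinal cord, and at most 661 RPTM in another profile. As these are pieces of whole tissue, fewer cells of a type and less RNA per cell cannot be told apart in this and the following groups.

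The neuronal miRNAs leaned to the occipital lobe, by less. miR-124a-3p differed by 1.68 (1.64 to 1.72), which is 3.20-fold, and by at most 1.35 in the 4 pairs, where it had only a few reads. miR-128a-3p, another miRNA enriched in neurons, had 46860 RPTM in occipital lobe against 23264 RPTM in spinal cord, a difference of 1.01. Of its reads, 76.2% were also counted for another entry. The entry miR-128b-3p, counted as a further member of the list, had 47190 and 24828 RPTM. miR-9-5p, made in neurons and neural progenitors, differed by 0.55. miR-138-5p, found at synapses, was the other way round with 973 and 1933 RPTM, a difference of −0.99 that stayed within the 1.09 of its pairs.

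Of the 24 mature sequences of the neuronal list, 17 passed the filter, 3 were at least 2-fold higher in occipital lobe, and none was at least 2-fold higher in spinal cord. Among all filtered miRNAs, 8.36% and 31.3% were so. The median of the 17 was 0.38, beside −0.33 for all and 0.013 for the miRNAs that averaged 100 RPTM or more. Of the 17, 12 were above the overall median of −0.33 and 5 were below it. Besides miR-138-5p, those lower in occipital lobe were miR-7-5p (−0.94), miR-132-5p (−0.48), miR-212-3p (−0.46), miR-132-3p (−0.43) and miR-9-3p (−0.31). The summed level of the list was 462532 RPTM in occipital lobe against 302403 RPTM in spinal cord, and 733 to 6435 RPTM in the other tissues. The 3p arm of miR-137, which controls neuronal maturation, had 5 reads in occipital lobe and 80 in spinal cord and did not pass the filter. miR-218-5p, enriched in motor neurons, which lie in the spinal cord, had 1634 RPTM in occipital lobe against 1101 RPTM in spinal cord. The other 2 sequences of that list, both from 3p arms of miR-218, had 4 reads or fewer.

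**Figure D4:**
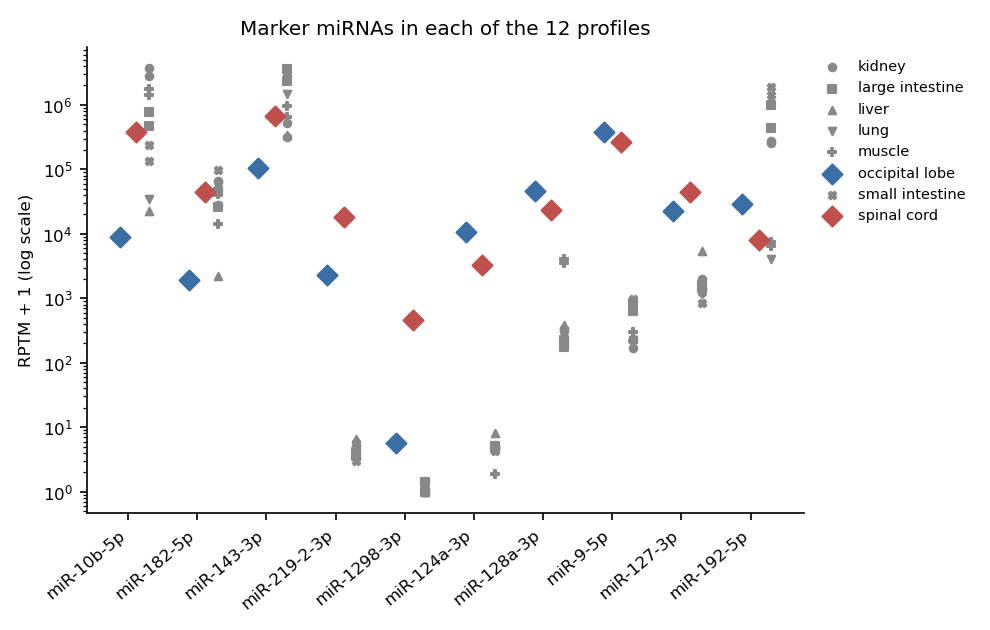
Levels of 10 marker miRNAs (x axis) as RPTM + 1 on a log scale (y axis) in the occipital lobe (blue diamonds), the spinal cord (red diamonds) and the 10 profiles of other tissues (grey, a shape for each tissue). miR-10b-5p, miR-182-5p and miR-143-3p were within the range of other tissues in spinal cord and below it in occipital lobe, whereas miR-219-2-3p, miR-124a-3p, miR-128a-3p, miR-9-5p and miR-127-3p were above it in both.

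The imprinted DLK1-DIO3 region encodes many miRNAs that are abundant in brain, and it gave a mixed picture. Of 88 mature sequences, 81 had reads in the 2 profiles and 45 passed the filter. Of the 45, 15 were at least 2-fold higher in spinal cord and 3 in occipital lobe, which is near the background of 31.3% and 8.36%. miR-127-3p had 22710 RPTM in occipital lobe against 44681 RPTM in spinal cord, whereas miR-381-3p had 10505 and 5041 RPTM. miR-411-5p had 32770 and 22561 RPTM, and miR-432-5p had 428 and 1623 RPTM. The summed level of 84503 and 106936 RPTM differed by −0.34, close to the median of all miRNAs, and was at most 24826 RPTM in another profile (liver).

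The miRNAs of vessels, connective tissue and leukocytes were mostly higher in spinal cord. miR-143-3p, made in smooth muscle and pericytes, had 103028 RPTM in occipital lobe against 683533 RPTM in spinal cord, where it was the third most abundant miRNA and made up 11.8% of the assigned reads, against 1.83% in occipital lobe. It differed by −2.73 (−2.74 to −2.72). miR-145-3p, from a hairpin within 10 kb, had 99.5 and 455 RPTM, and miR-145-5p had 36.5 and 183 RPTM. All 4 sequences of the smooth muscle list passed the filter and were at least 4-fold higher in spinal cord, beside 14% of all filtered miRNAs, among them the passenger arm miR-143-5p with 0 and 29 reads. The occipital lobe was below every other tissue in the summed level of this list (103165 RPTM, others from 322998), while the spinal cord was not (684183 RPTM).

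miR-126-3p, the miRNA of endothelial cells, had 493 RPTM in occipital lobe against 1136 RPTM in spinal cord, a difference of −1.20 that was larger than the 0.45 of its pairs. The stromal list, with miR-199a and miR-214, was summed to 423 and 994 RPTM, both far below the 4194 RPTM of the lowest other tissue. All 5 of its sequences passed the filter and 4 were at least 2-fold higher in spinal cord, beside 31.3% of all filtered miRNAs. Of the 8 filtered sequences of the immune list, 5 were at least 2-fold higher in spinal cord, beside the same 31.3%. Among them were miR-142-5p, common to leukocytes and microglia, with 99.1 and 247 RPTM, and miR-155-5p, induced in activated immune cells, with 36 and 121 reads. miR-146a-5p was at 438 and 422 RPTM.

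The blood miRNAs were mixed. The erythroid list was summed to 277500 RPTM in occipital lobe against 172221 RPTM in spinal cord, nearly all of it miR-486-5p, with 276764 and 171594 RPTM. The difference of miR-486-5p, 0.69, was within the 0.86 of its pairs, and its highest level was 815651 RPTM in muscle 2. The defining red cell miRNAs miR-451-5p (234 and 362 RPTM) and miR-144-3p (34.8 and 63.2 RPTM) were higher in spinal cord, by less than the spread of their pairs. Both entries of the 3p arm, mml-miR-486-3p and mml-mir-486-3p, which share reads, were among the 12 with the largest difference toward occipital lobe. They had 373 and 437 RPTM in occipital lobe, and 162 and 192 RPTM in spinal cord. The vessel, stromal and immune lists thus moved in the direction of the spinal cord miRNAs described above. The summed erythroid list moved in the other, by less than the largest pair difference of miR-486-5p. The part of these lists in those results was not tested.

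Lists of cells that neither tissue should hold in number were low beside the tissues that these lists mark. miR-133a-3p, a skeletal muscle miRNA, had 86.1 RPTM in occipital lobe against 710 RPTM in spinal cord, beside 129703 and 144690 RPTM in the 2 muscle profiles. All of its reads were shared with miR-133c-3p, so that these entries stand for 1 measurement, with a difference of −3.03. With identical reads only, which tell the entries apart, the differences were −2.16 for miR-133a-3p and −3.63 for miR-133c-3p. The muscle miRNAs miR-1-3p (1 and 11 reads) and miR-206-3p (3 and 1 reads) were near 0, and the summed level of the skeletal muscle list was 127 and 781 RPTM. In the profiles of tissues other than muscle it lay between 55.3 RPTM (liver) and 936 RPTM (large intestine 2). Of these, only large intestine 2 was above the spinal cord. The epithelial list was summed to 24.3 and 11.3 RPTM, and to at least 58.4 RPTM in the other profiles. The hepatocyte list was summed to 2.17 and 2.09 RPTM.

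In the other direction, only miR-320a-1-3p, miR-378a-5p and miR-548p-9-5p were at least 4-fold higher in occipital lobe. miR-320a-1-3p had 2230 RPTM in occipital lobe, 186 RPTM in spinal cord and at most 152 RPTM elsewhere, a difference of 3.58. miR-378a-5p had 2683 and 354 RPTM, a difference of 2.92, while the muscle profiles had 23941 and 29941 RPTM. miR-548p-9-5p, under 100 RPTM and named after its values were seen, had 127 and 31 reads. The first of these sequences differs from mml-mir-320a-3p by a single base, G19A, and the second from mml-mir-378a-3p by G21A and a further final base. The second pair is shown here with the seed in capitals.
mir-378a-3p: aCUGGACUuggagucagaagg
miR-378a-5p: aCUGGACUuggagucagaagac

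These relatives did not differ to the same extent. mml-mir-320a-3p had 10050 and 6316 RPTM, a difference of 0.67, and mml-mir-378a-3p had 6742 and 3716 RPTM, a difference of 0.86. Of the reads counted for miR-320a-1-3p, 98.5% in occipital lobe and 95.7% in spinal cord ended in AC and matched another mature miRNA exactly once these letters were removed. For miR-378a-5p the shares were 93.1% and 70.3%. Over all miRNAs, an AC that the pre-miRNA does not have followed 0.756% of the reads in occipital lobe and 0.237% in spinal cord, and a single such C followed 16.1% and 8.11%. In the other 10 profiles, the AC followed 0.174% (kidney 1) to 2.21% (liver) and the single C 8.12% to 24.1%. The occipital lobe was thus within the range of the other tissues for both. Whether the reads of these entries come from hairpins of their own was not tested. When reads of this kind were left out, the differences were 1.96 and 0.82, and 1 miRNA (miR-548p-9-5p) remained at least 4-fold higher in occipital lobe.

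The remaining miRNAs with the largest differences toward occipital lobe were under 4-fold. miR-192-5p, a miRNA of gut, liver and kidney, had 28864 RPTM in occipital lobe against 8140 RPTM in spinal cord, a difference of 1.83. miR-194-5p, the same sequence from 2 hairpins, had 248 and 71.5 RPTM, a difference of 1.78. The hairpin mir-194-2 lies within 10 kb of mir-192, whereas mir-194-1 lies on another chromosome, and their reads were not told apart. Both miRNAs were far higher in intestine and liver, up to 1873843 and 23053 RPTM in small intestine 1. The summed level of the epithelial list, given above, did not reach that of any other profile in either tissue. The part of epithelial tissue in this result was not tested.

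A second kind was highest in the neural profiles. miR-484-5p, within NDE1, a gene of neural progenitor division, had 1366 RPTM in occipital lobe against 417 RPTM in spinal cord, and at most 340 RPTM elsewhere. miR-1296-5p, within JMJD1C, had 1639 and 678 RPTM, and at most 87.2 RPTM elsewhere. miR-342-5p, within EVL, had 764 and 262 RPTM, and at most 66.0 RPTM elsewhere. The differences of these 3 miRNAs were 1.71, 1.27 and 1.54. Apart from this kind, miR-497-5p, of the miR-15 and miR-16 family, had 977 RPTM in occipital lobe against 349 RPTM in spinal cord. miR-455-5p, within the collagen gene COL27A1, had 524 and 206 RPTM.

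Most of the abundant miRNAs differed by less than 2-fold. Of the 10 most abundant miRNAs of each profile, 7 were the same. The 10 of occipital lobe held 77.7% of its assigned reads, and those of spinal cord 73.8%. The first 2 were let-7f-5p, with 1249023 and 895617 RPTM, and miR-181a-5p, with 906543 and 1043946 RPTM. let-7f-5p belongs to the let-7 family, which restrains proliferation and marks differentiated cells. The others in both sets were let-7a-5p, miR-9-5p, miR-486-5p, let-7i-5p and miR-27b-3p. Those in occipital lobe alone were miR-26a-5p, let-7e-5p and miR-99b-5p. In spinal cord they were replaced by miR-143-3p, miR-10b-5p and miR-30a-5p, the last of which had nearly the same level in both, 142641 and 141378 RPTM.

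Among the miRNAs named for their differences, miR-10a-5p and miR-10b-5p were the members of a family with a shared seed, ACCCUGU, and no other mature miRNA of the list had it. The seed GGGGCAG was that of both entries of miR-486-3p. The share of the assigned reads with the seed ACCCUGU followed from these levels: miR-10b-5p took 0.159% of the assigned reads in occipital lobe and 6.55% in spinal cord, and miR-10a-5p took 0.0204% and 1.22%.

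The arms of a pre-miRNA come from 1 transcript, so that the share of the 3p arm does not depend on how the libraries are scaled. For 130 pre-miRNAs with both arms listed and at least 100 reads in each of the 2 profiles, the share differed by a median of 0.345 percentage points. It differed by at least 10 points for 6 of the 130 (4.62%), which lay among the shares of 1.19% (large intestine), 2.25% (kidney), 5.81% (small intestine) and 6.52% (muscle) that did so between the 2 profiles of a tissue.

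The 6 pre-miRNAs are described with their 95% Wilson intervals, which cover counting error only. mir-488, a neural miRNA, had a 3p share of 82.4% (74.8% to 88.1%) in occipital lobe and 66.2% (58.5% to 73.2%) in spinal cord, from 125 and 157 reads. mir-330 had 42.1% and 30.6%, and mir-339 had 94.8% (94.0% to 95.5%) and 83.9% (82.1% to 85.6%). These leaned to the 3p arm in occipital lobe. The share was lower there for mir-342, with 73.9% (72.9% to 75.0%) and 84.5% (83.3% to 85.6%), for mir-369, with 15.1% and 26.3%, and for mir-135b, with 7.87% and 18.2%. With reads identical to the mature sequence only, mir-488, mir-339 and mir-342 were still called at 10 points and 100 reads, and mir-330, mir-369 and mir-135b were not. For mir-339 the large intestine pair differed by 9.68 points, beside 10.9 here. For mir-342 the occipital lobe was below each of the other profiles, which lay between 80.5% and 92.4%, and the pairs differed by at most 4.14 points.

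Finally, single base changes within the mature miRNAs were compared, a readout that the exact matches did not use. Adenosine deaminases of the ADAR family convert adenosine to inosine in double-stranded RNA, and inosine is read as G. A site was used when at least 100 reads covered it in both profiles and the changed base made up at least 5% and 10 reads in at least 1 of them. There were 19 such sites, 10 of A-to-G and 9 of C-to-U. A base that differs between the animal and the listed sequence gives the same kind of reads, and its part was not tested. A3G of miR-151-2-3p and C19U of miR-27a-3p stood above 95% in all 12 profiles. Of the 19 sites, 4 had a changed sequence within 1 mismatch of another listed pre-miRNA, namely these 2, C16U of let-7d-5p (8.99% and 8.65%), which lies close to let-7a, and A9G of miR-30d-3p (3.82% and 5.53%).

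Sites whose Wilson intervals were apart, from miR-411-5p to miR-125b-1-5p, and sites that were near equal in the neural profiles, the last 3, are shown with the changed base in capitals.
miR-411-5p: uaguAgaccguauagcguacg
miR-381-3p: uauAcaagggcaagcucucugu
miR-340-3p: uccgucucaguuAcuuuauagcc
mir-378a-3p: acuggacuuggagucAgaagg
miR-330-3p: gcaaagcacacggccugCagaga
miR-125b-1-5p: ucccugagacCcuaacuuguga
miR-99b-3p: aAgcucgugucuguggguccg
miR-497-5p: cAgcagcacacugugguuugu
miR-376a-1-5p: guAgauucuccuucuaugaguac

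A-to-G changes did not go in a common direction. A13G of miR-340-3p made up 10.5% of 697 reads in occipital lobe (8.41% to 12.97%) and 2.40% of 707 reads in spinal cord (1.51% to 3.82%). A16G of mir-378a-3p made up 14.2% (13.7% to 14.7%) and 8.17% (7.64% to 8.73%), and at most 4.09% in the other 10 profiles. The same change in miR-378a-5p, 13.7% and 7.34%, rests on a nearly identical sequence and is no separate site. These were higher in occipital lobe.

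A pair of seed sites of the imprinted region was higher in spinal cord. A5G of miR-411-5p made up 12.9% of 86561 reads in occipital lobe (12.7% to 13.1%) and 17.8% of 65580 reads in spinal cord (17.5% to 18.1%). Both were above the other 10 profiles, which lay between 3.35% and 11.1%, and the difference of −4.87 points exceeded in size the 1.84 points of the largest pair. A4G of miR-381-3p made up 1.97% (1.805% to 2.15%) and 5.04% (4.68% to 5.44%), and 1.22% to 4.84% elsewhere.

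Other A-to-G sites were near equal in the neural profiles. A2G of miR-99b-3p made up 17.1% and 17.0%, A2G of miR-497-5p made up 10.9% and 11.6%, and A3G of miR-376a-1-5p, with 137 and 177 reads, made up 16.8% and 15.8%. All of these lie in the seed. The Wilson intervals overlapped for each of them, and those of miR-376a-1-5p were over 10 points wide, so that a difference of some points was not detectable there.

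Among C-to-U changes, the intervals were apart for C18U of miR-330-3p, with 4.76% of 252 reads in occipital lobe (2.74% to 8.14%) and 14.6% of 418 reads in spinal cord (11.5% to 18.3%), and by under 1 point for C11U of miR-125b-1-5p, with 8.84% and 8.03%. For the latter the pairs of other tissues differed by up to 5.27 points. C17U of miR-106b-5p made up 1.88% and 6.99%, with overlapping intervals. C15U of miR-219-1-5p, the oligodendrocyte miRNA, made up 18.7% and 14.6%, C16U of miR-9-3p made up 7.05% and 7.72%, and C10U made up 5.86% and 5.16% in miR-23a-3p and 8.52% and 8.05% in miR-23b-3p. In these, too, the intervals overlapped.

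**Figure D5:**
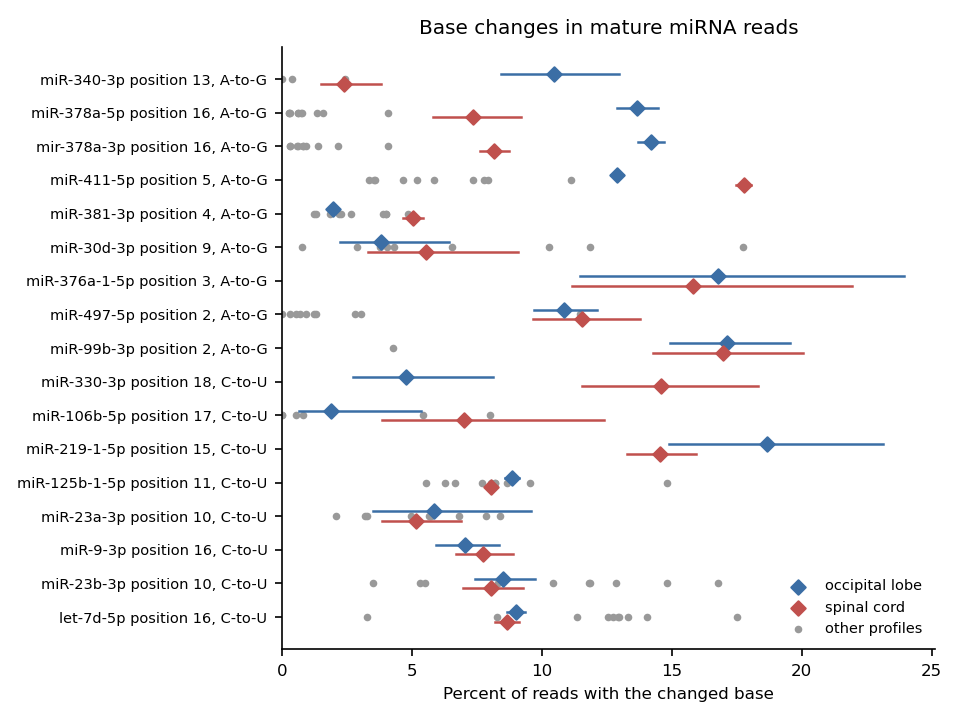
The percent of reads with the changed base (x axis) at 17 sites (y axis, the position counted from 1 at the 5′ end) in occipital lobe (blue) and spinal cord (red), with lines for 95% Wilson intervals, and in other profiles with at least 100 reads over the site (grey). The sites above 95% in both profiles are left out. miR-340-3p and miR-378a were higher in occipital lobe, and miR-411-5p, miR-381-3p and miR-330-3p in spinal cord, of which miR-381-3p and miR-330-3p did not meet the minima with exact mature ends only.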

How the data were processed

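Per the labels, each profile is 1 small RNA library. The authors kept reads with high sequencing scores, removed the 3′ adapter, discarded sequences shorter than 18 nucleotides and deposited counts of the unique sequences without normalization. From 832 pre-miRNAs in the study's list, the deposited counts were assigned to mature miRNAs in Python 3.11.15 and scaled to RPTM, with 1 RPTM standing for 2.3 reads in occipital lobe and 2.39 in spinal cord. A read that matched several mature miRNAs was counted for each. Exact matching leaves out edited and tailed reads. TMM factors (edgeR 4.0.16) and DESeq2 1.42.0 size factors served as alternative scales only. The scripts were tested on simulated data. No test was made, with 1 profile a side. Labels do not say that replicate numbers stand for animals.

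Members, lists and rules were chosen with earlier results of these data known. Named were the members of the 16 marker lists, the 12 miRNAs per direction with the largest difference at 100 RPTM or more in the higher profile and beyond each pair, the 10 most abundant per profile, seed families, the 6 largest arm differences and the 19 sites. Other miRNAs named were chosen after their values were seen, members under 100 RPTM included. Gene positions came from RefSeq (57 of 60 pre-miRNAs matched), by name only, since its assembly is not the study's. Wilson and exact intervals cover counting error only. No genome was used here.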

Additional observations from a re-analysis of the deposited data

How the results depend on the processing

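No paired analysis was possible because occipital lobe and spinal cord had 1 profile each. The count of miRNAs at least 4-fold higher in spinal cord (52) was 31 with a pseudocount of 10, 18 with a mean of at least 100 RPTM, 116 at 2-fold and 21 at 8-fold, where fewer miRNAs or other limits apply by construction. The count for occipital lobe (3) was 5 with a pseudocount of 0.1, 8 with no filter, 31 at 2-fold, 1 at 8-fold and, in alternatives chosen after seeing the data, 7 with centred differences and 1 without reads that match another miRNA once a final C or AC is removed. Scaling by TMM factors, DESeq2 size factors or assigned reads moved neither count by more than 1.5 times. The median absolute difference within tissues (0.47) was 0.451 to 0.476 without 1 of the pairs, 0.28 with a pseudocount of 10 and 0.40 with a mean of at least 100 RPTM.

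With reads identical to the mature sequence only, miR-320a-1-3p turned to −0.17, and miR-182-5p, miR-133a-3p and miR-133c-3p moved to −3.38, −2.16 and −3.63. The cause was not tested. The sites numbered 10 in place of 19 with exact mature ends only, without those of miR-381-3p and miR-330-3p, and mir-339 and mir-342 were the 2 arm differences left with at least 1000 reads. Low counts limit members with under about 100 reads, and with 1 library a side no value separates tissue, animal and library.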
